A study of Nicotiana tabacum with 9 samples.

Results

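Chromatin, DNA replication and repair genes were taken from tobacco genes at which AmMIXTA or NtZFP8 had a peak in DNA affinity purification sequencing (DAP-seq). A gene was a member if its description in either deposited gene table held a word of this biology, such as histone, chromatin, DNA repair, DNA helicase, DNA polymerase, replication protein A, SWI/SNF or ALWAYS EARLY, at any score and with no ubiquitin match. This gave 35 of the 1884 genes of both tables, 33 in the AmMIXTA table and 18 in the NtZFP8 table. The words DNA replication, topoisomerase, DNA mismatch, cohesin, condensin, DNA (cytosine, methyl-CpG and chromodomain matched 0 genes. Members therefore cover histone-modifying enzymes (13), chromatin remodelling and assembly (5), helicases (3), polymerases and replication proteins (6), repair proteins (6) and histones (2), and no DNA methyltransferase described as such.

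In DAP-seq a HALO-tagged protein is produced in vitro, here in wheat germ extract, and immobilised on beads, and naked genomic DNA that it retains is sequenced. The groups were HALO-AmMIXTA, a snapdragon R2R3-MYB factor of epidermal cell shape, HALO-NtZFP8, a tobacco C2H2 zinc finger factor, and HALO-nlsGFP, a nuclear-targeted fluorescent protein used as negative control. Each had 3 replicates, and all met DNA from leaf primordia of wild-type tobacco (Nicotiana tabacum), cultivar Petit Havana, labelled SR1. The DNA was purified and sheared before binding, so the assay carries no nucleosomes, no cell type and no expression level. The authors called the peaks of each protein against GFP. Every score and position below comes from the authors' peak calls. There is 1 value per peak and protein with none per replicate, and depth is unknown, so no error can be attached to a score and no group was compared over replicates. The score ranks peaks within the list of 1 protein.

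Chromatin is DNA wound on histones, and its enzymes act by adding or removing marks on histone tails or by sliding and evicting nucleosomes with the energy of ATP. Replication opens the double helix with helicases, coats single strands with replication protein A and copies them with polymerases, while repair and recombination proteins mend breaks. In leaf primordia, where cells divide before trichomes grow out, these processes serve both proliferation and the setting of cell identity.

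With the authors' criteria, a score above 2 and a p-value under 0.05, 26 members had a peak of AmMIXTA and 15 a peak of NtZFP8. These were 78.8% of the 33 members in the AmMIXTA table, against 71.9% of all its genes, and 83.3% of the 18 in the NtZFP8 table, against 77.4% of all its genes. Both shares lay near those of the tables as a whole. The criteria were met for both proteins by 13 members, for AmMIXTA alone by 13, for NtZFP8 alone by 2 and for neither by 7. Of the 1884 genes in either table, 592 met them for both, 603 for AmMIXTA alone, 162 for NtZFP8 alone and the rest for neither. The 13 members of both were 50% of the AmMIXTA members and 86.7% of the NtZFP8 members, where all genes gave 49.5% and 78.5%. As a share of all 35 members they were 37.1%, against 31.4% of the genes in either table. AmMIXTA and NtZFP8 had the GFP libraries as their common control, so these shares are given as a description. Nearest to the criterion for AmMIXTA, the repair gene swi5-dependent recombination DNA repair protein 1 homolog passed at 2.09, and the highest score of a member that failed was 1.86, at ASHR3-like. For NtZFP8 the lowest score that passed was 2.51, at recA homolog 3, and the highest that failed was 1.97, at an RNA-directed DNA polymerase homolog.

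**Figure D1:**
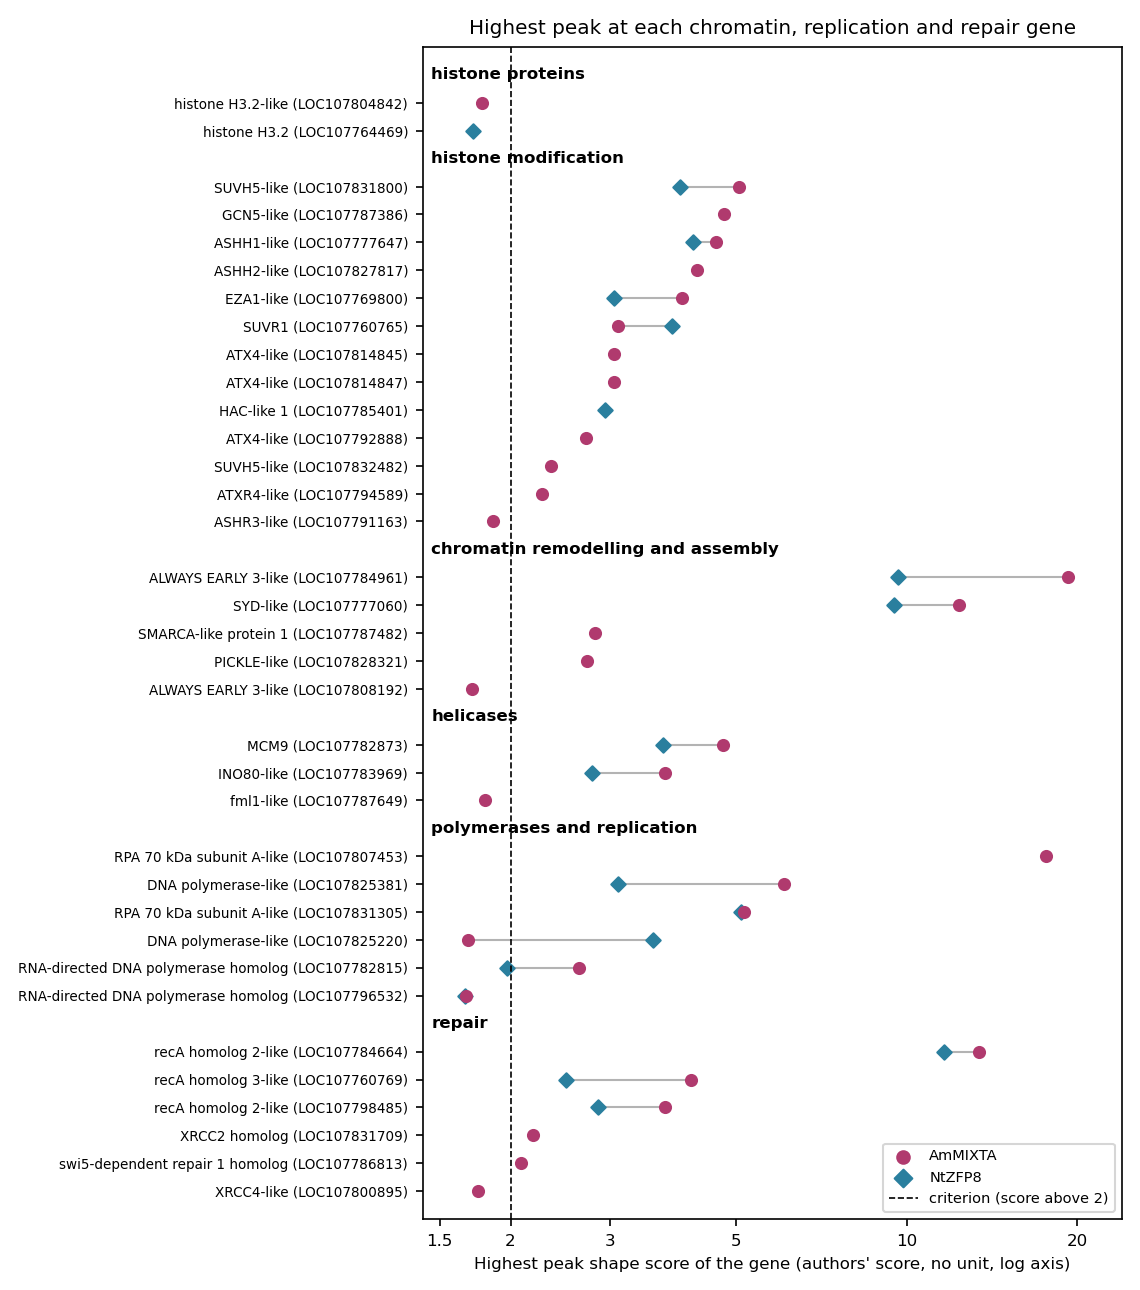
Highest peak shape score of each of the 35 members on a log axis, grouped by role, with circles for AmMIXTA, diamonds for NtZFP8 and a dashed line at the criterion of 2. A missing symbol means that the gene is not in that protein's table; the 4 AmMIXTA scores above 10 stand at ALWAYS EARLY 3-like, the replication protein A subunit, recA homolog 2 and SYD-like, and both histone genes lie below the line.

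The highest AmMIXTA score of the whole group stood at a gene described as ALWAYS EARLY 3-like (LOC107784961). Proteins of this name are relatives of the animal LIN9 proteins, which sit in DREAM-type complexes of the cell cycle. The AmMIXTA peak of this gene spanned 69409 to 69778 of NW_015911627.1 with a score of 19.31, rank 12 of 1195 genes past the criteria. Its NtZFP8 peak spanned 69492 to 69898 with 9.65, rank 79 of 754 genes. These peaks overlapped by 287 bp, but the NtZFP8 centre lay 156 bp further along the sequence. Another gene of the same description, LOC107808192, had a single AmMIXTA peak at 1.71 (11998 to 12379 of NW_015945804.1), under the criterion, and no NtZFP8 peak was listed anywhere on its sequence.

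Among chromatin remodellers, SYD-like was the member with the most peaks past the criteria for both proteins together. SYD (SPLAYED) is a SWI/SNF-type ATPase known in Arabidopsis for its part in meristem and flower development. At SYD-like (LOC107777060, NW_015902489.1), AmMIXTA had a peak at 48468 to 48884 with a score of 12.37 and another at 48891 to 49252 with 8.02. NtZFP8 had 3 peaks there, at 48573 to 48773 with 5.22, at 48916 to 49223 with 6.74 and at 49329 to 49608 with 9.52. The first and second NtZFP8 peaks lay wholly inside the AmMIXTA peaks, and the third, the highest of NtZFP8, began 76 bp beyond the end of the last AmMIXTA peak. Along this stretch the AmMIXTA score was thus highest at the first peak and the NtZFP8 score at the last, and the highest peaks of the 2 proteins had centres 758 bp apart. More than 1 AmMIXTA peak past the criteria was found at SYD-like alone of the 26 members (3.85%), beside 6.86% of all genes, and more than 1 of NtZFP8 at 2 of 15 (13.3%), beside 13.0%. SYD-like was the 1 member of the 13 whose highest peaks did not overlap. For the other 12 (92.3%) they did, against 89.0% of all genes past the criteria for both proteins.

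The other remodellers were found for AmMIXTA alone, at low scores. PICKLE-like (LOC107828321), whose Arabidopsis namesake is a CHD3 remodeller that keeps embryonic genes silent after germination, scored 2.73 (21182 to 21582 of NW_015850267.1). The SWI/SNF-related subfamily A-like protein 1 gene (LOC107787482), whose human counterpart rewinds DNA at stalled replication forks, scored 2.82 (3063 to 3439 of NW_015914557.1). No NtZFP8 peak was listed on either sequence. The INO80-like gene (LOC107783969) is described as a helicase, but INO80 is known as the ATPase of a nucleosome-remodelling complex. It had an AmMIXTA score of 3.75 (91532 to 92035 of NW_015910455.1) and an NtZFP8 score of 2.78 (91745 to 92026), with the NtZFP8 peak wholly inside the AmMIXTA peak.

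Histone-modifying enzymes were the largest group, and their scores were moderate. Of 13 members, 11 were past the criteria for AmMIXTA, with scores from 2.27 to 5.06 and a median of 3.10, and 5 for NtZFP8, from 2.93 to 4.20 with a median of 3.85. Of the 1884 genes in either table, 63.4% were past the criteria for AmMIXTA and 40.0% for NtZFP8. In comparison, the median over all genes past the criteria was 3.06 for AmMIXTA and 3.54 for NtZFP8. SUVH5-like (LOC107831800), of a family that methylates lysine 9 of histone H3 and reads methylated DNA, had the highest AmMIXTA score of the group, 5.06 (20216 to 20593 of NW_015861812.1), and an NtZFP8 score of 3.99 (20332 to 20574). The centres of these peaks lay 12 bp apart.

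Methyltransferases of active and of Polycomb chromatin also had peaks of both proteins. ASHH1-like (LOC107777647), of a SET-domain family tied to transcribed genes, had 4.61 for AmMIXTA (44448 to 44802 of NW_015903238.1) and the highest NtZFP8 score of the group, 4.20 (44545 to 44798). EZA1-like (LOC107769800) is named for an Arabidopsis enzyme, also called SWINGER, that deposits the repressive Polycomb mark on lysine 27 of histone H3. It had 4.01 (22437 to 22843 of NW_015889868.1) and 3.04 (22572 to 22863). SUVR1 (LOC107760765), described as a probable inactive methyltransferase, had 3.10 for AmMIXTA (7142 to 7528 of NW_015871241.1) and 3.85 for NtZFP8 (7288 to 7588).

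The remaining methyltransferases appeared in the AmMIXTA table alone. ASHH2-like (LOC107827817), whose Arabidopsis namesake methylates histone H3 over transcribed genes, had the highest score of these, 4.27 (23768 to 24196 of NW_015848720.1). ATX4-like genes belong to the trithorax group, known for methylation of lysine 4 of histone H3, and 3 of them were past the criterion. LOC107792888 had 2.72 (60513 to 60962 of NW_015800597.1), while LOC107814845 and LOC107814847 shared 1 peak with 3.04 (35131 to 35628 of NW_015809564.1), which the authors tied to both genes. These 3 genes thus rest on 2 peaks. A second SUVH5-like gene (LOC107832482) had 2.36 and ATXR4-like (LOC107794589) had 2.27, and ASHR3-like (LOC107791163) stayed at 1.86. No NtZFP8 peak was listed on the sequences of ASHH2-like, ATXR4-like, the second SUVH5-like or any ATX4-like gene. At ASHR3-like the nearest NtZFP8 peak centre was 21594 bp away.

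Histone acetyltransferases, which loosen chromatin by neutralising lysines, were represented by 2 genes, each listed for 1 protein. GCN5-like (LOC107787386), the catalytic subunit of SAGA-type coactivators, had an AmMIXTA peak at 106613 to 107059 of NW_015914450.1 with a score of 4.77. Its sequence held 5 NtZFP8 peaks, the nearest of which was centred 24116 bp away. HAC-like 1 (LOC107785401), of the CBP/p300 type, had an NtZFP8 peak at 9009 to 9335 of NW_015912149.1 with 2.93, and its sequence held no AmMIXTA peak at any listed score. The 2 histone genes among the members, each listed for 1 protein, were not past the criteria. Histone H3.2-like (LOC107804842) had 1.78 for AmMIXTA, and histone H3.2 (LOC107764469) had 1.72 for NtZFP8.

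**Figure D2:**
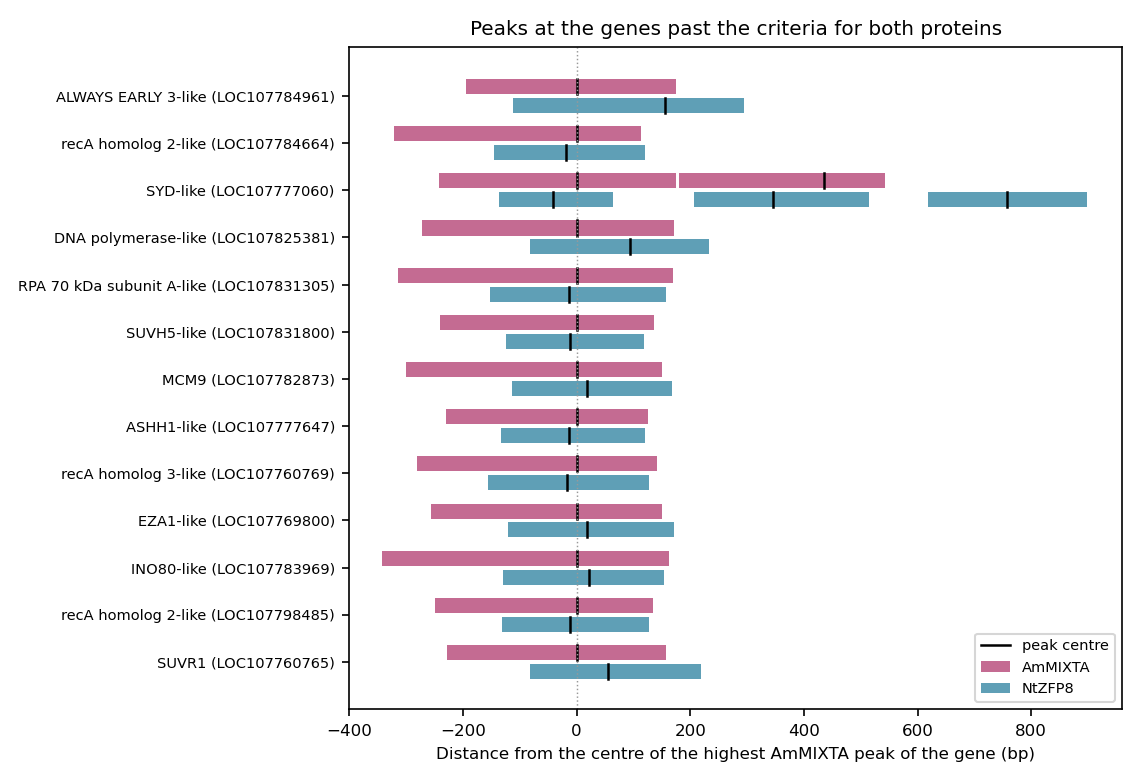
Extent of every peak (bars) and its centre (black ticks) at the 13 members past the criteria for both proteins, as distance in bp from the centre of the highest AmMIXTA peak. Bars of the proteins overlap at all 13 members; the NtZFP8 centre lies 156 bp away at ALWAYS EARLY 3-like, and the third NtZFP8 peak of SYD-like lies outside both AmMIXTA peaks.

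Replication genes were led by replication protein A, the complex that coats single-stranded DNA. The gene for its 70 kDa DNA-binding subunit A-like, LOC107807453, had an AmMIXTA peak at 1024 to 1424 of NW_015944541.1 with a score of 17.61, rank 20 of 1195. It is not in the NtZFP8 gene table, although the full NtZFP8 list holds a peak at 1153 to 1412 with a score of 13.51, inside the AmMIXTA peak and 18 bp from its centre. Counted with that peak, the members past the criteria for both proteins are 14. The second gene of this description, LOC107831305, had 5.16 for AmMIXTA (25458 to 25942 of NW_015860168.1) and 5.11 for NtZFP8 (25621 to 25930), with centres 13 bp apart. Both genes of this subunit therefore had a peak of each protein, 1 of them by the full list only.

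The polymerase genes were less uniform. DNA polymerase-like LOC107825381 had 6.08 for AmMIXTA (72062 to 72506 of NW_015840722.1) and 3.09 for NtZFP8 (72253 to 72567), and the centres were 94 bp apart. DNA polymerase-like LOC107825220 was past the criteria for NtZFP8 alone, with 3 peaks over 388 to 3349 of NW_015840210.1 that scored 3.57, 2.99 and 3.18. Its AmMIXTA peak had 1.68 and lay on the middle one of these, with centres 8 bp apart. A pair of genes described as RNA-directed DNA polymerase homolog, the name of a reverse transcriptase and not of a replication enzyme, met the rule through their wording. LOC107782815 had AmMIXTA peaks of 1.83 and 2.64 and NtZFP8 peaks of 1.84 and 1.97 at the same places, with centres 4 and 2 bp apart. LOC107796532 had 1.67 and 1.66, with both centres at the same base.

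The helicase MCM9 gene (LOC107782873) is related to the replicative MCM helicases and known in animals for a role in recombination. It had an AmMIXTA score of 4.75 (31221 to 31672 of NW_015909025.1) and an NtZFP8 score of 3.72 (31408 to 31688). Its centres were 19 bp apart. The fml1-like gene (LOC107787649), named for a fission yeast helicase of the FANCM family, had 1.80 for AmMIXTA, under the criterion, and no listed NtZFP8 peak on its sequence.

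Recombinases of the recA type led the repair genes. All 3 genes of this type, relatives of a bacterial enzyme and described as mitochondrial, were past the criteria for both proteins, beside 31.4% of the genes in either table, and 2 of the 3 share a description. recA homolog 2 (LOC107784664) had 13.41 for AmMIXTA (51835 to 52269 of NW_015911314.1) and 11.63 for NtZFP8 (52010 to 52276), rank 54 in each table and the highest score of any member in the NtZFP8 gene table. The other recA homolog 2 gene (LOC107798485) had 3.74 (17297 to 17680 of NW_015929751.1) and 2.85 (17416 to 17674). recA homolog 3 (LOC107760769) had 4.17 (25262 to 25683 of NW_015871268.1) and 2.51 (25387 to 25669). Their centres lay 19, 12 and 17 bp apart.

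The 3 repair genes of other kinds were in the AmMIXTA table alone, close to the criterion. The XRCC2 homolog (LOC107831709), known for a part in homologous recombination, had 2.19 (16877 to 17150 of NW_015792906.1). The swi5-dependent repair protein 1 homolog (LOC107786813) had 2.09. XRCC4-like (LOC107800895), a scaffold of DNA ligase in end joining, had 1.75. No NtZFP8 peak was listed on any of these 3 sequences.

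Several members share a description, and their AmMIXTA scores ranged from nearly equal to far apart. Tobacco is an allotetraploid, so a gene is often present in a copy from each ancestral genome, but the tables do not say which genes are such copies. Among the members 7 descriptions were held by 15 genes. The higher AmMIXTA score was 11.3 times the lower for ALWAYS EARLY 3-like, 3.62 times for DNA polymerase-like, 3.59 times for recA homolog 2, 3.41 times for the replication protein A subunit and 2.14 times for SUVH5-like. It was 1.58 times for the RNA-directed DNA polymerase homolog and 1.12 times for ATX4-like. The ATX4-like genes LOC107814845 and LOC107814847 share a single peak, so their scores are equal by construction. The lowest score in the AmMIXTA list was 1.64. The lower scores of ALWAYS EARLY 3-like (1.71), DNA polymerase-like (1.68) and the RNA-directed DNA polymerase homolog (1.67) lay close to it, under the criterion. Since the score ranks peaks, a ratio of scores is not a fold of binding. Scores have no replicate error, so these ratios carry no test. Whether the copies share the bound sequence was not analysed here.

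**Figure D3:**
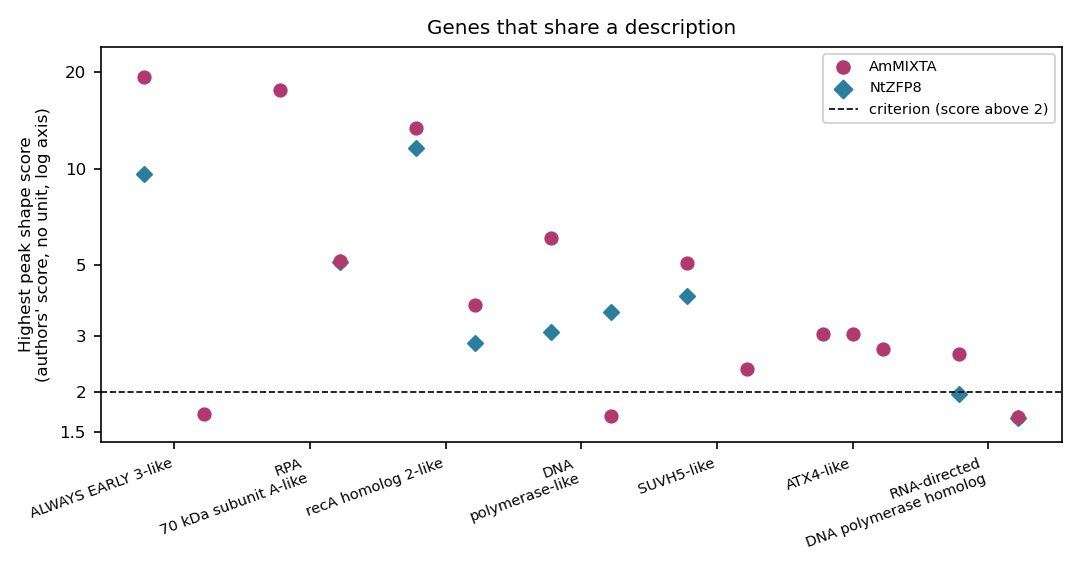
Highest peak shape score on a log axis for the 15 members that share a description with another member, with 1 column of symbols per gene, circles for AmMIXTA and diamonds for NtZFP8. ALWAYS EARLY 3-like has AmMIXTA scores of 19.31 and 1.71 on either side of the dashed criterion. The 3 ATX4-like genes lie between 2.72 and 3.04, and those at 3.04 share a single peak.

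Peaks of the proteins lay close together at the 13 members past the criteria for both. All 13 had at least 1 pair of overlapping peaks, against 96.5% of all such genes. The centres of the highest peaks were a median of 19 bp apart (interquartile range 14 to 56), beside 15 bp (7 to 32) over the 592 genes past the criteria for both, and 9 of 13 members (69.2%) were within 50 bp, beside 80.7%. Centres lay further apart at SYD-like, ALWAYS EARLY 3-like (156 bp), DNA polymerase-like LOC107825381 (94 bp) and SUVR1 (56 bp). At 7 members (53.8%) an NtZFP8 peak lay wholly inside an AmMIXTA peak, beside 39.5% of all genes. AmMIXTA peaks were the wider ones in both cases, with a median of 432 bp at the 26 members and 404 bp at all genes, and NtZFP8 peaks had 283 and 291 bp.

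Scores of the members were set beside those of all genes past the criteria. The median AmMIXTA score of the 26 members was 3.88 (interquartile range 2.75 to 4.99) beside 3.06 over 1195 genes. The median NtZFP8 score of the 15 members was 3.72 (2.99 to 4.66) beside 3.54 over 754 genes. AmMIXTA scores above 3 were reached by 18 of 26 members (69.2%), beside 51.5% of all genes, scores above 5 by 7 (26.9%), beside 21.8%, and scores above 10 by 4 (15.4%), beside 7.70%. For NtZFP8 these were 11 of 15 (73.3%) beside 59.9%, 4 (26.7%) beside 29.6%, and 1 (6.67%) beside 10.1%. With peaks of the full NtZFP8 list that overlap a gene's AmMIXTA peak also used, an alternative chosen after seeing the data, the NtZFP8 values were 12 of 16 (75%) above 3, 5 (31.2%) above 5 and 2 (12.5%) above 10, beside 59.8%, 29.6% and 10.3% of 759 genes. The peak of 13.51 at LOC107807453 thus turns the last 2 of these from below to above the share of all genes. The members passed on their own score, genes with a shared description may not be independent, and no test was made of these differences.

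**Figure D4:**
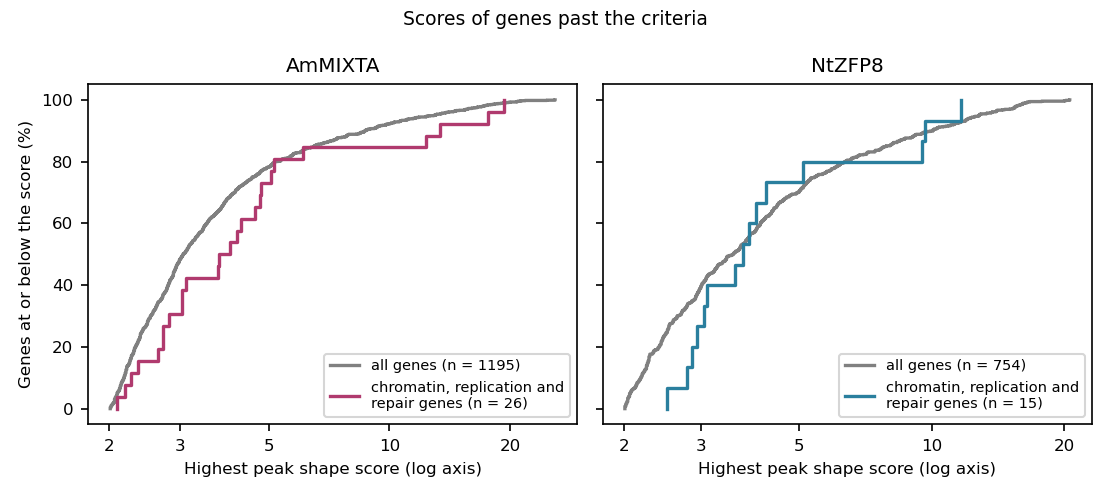
Share of genes (%) at or below each highest peak shape score (log axis), for all genes past the criteria in grey and for the members in colour, with AmMIXTA on the left and NtZFP8 on the right. The AmMIXTA members lie to the right of all genes through most of the range (medians 3.88 and 3.06), and the NtZFP8 members cross them (3.72 and 3.54).

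Members past the criteria for AmMIXTA alone mostly stood low in its list. The median AmMIXTA score was 2.73 for the 13 members of AmMIXTA alone and 4.75 for the 13 of both, beside 2.57 and 4.22 over all genes. The replication protein A gene LOC107807453 was the exception among the former at 17.61. Of these 13 members, 10 (76.9%) lay on a sequence with no listed NtZFP8 peak, beside 74.5% of all genes of AmMIXTA alone. Of the 2 members of NtZFP8 alone, HAC-like 1 lay on a sequence with no listed AmMIXTA peak, beside 41.4% of all genes of NtZFP8 alone. At GCN5-like the sequence held NtZFP8 peaks elsewhere. At the replication protein A gene and the RNA-directed DNA polymerase homolog LOC107782815 an NtZFP8 peak overlapped the AmMIXTA peak, at 13.51 and at 1.97.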

How the data were processed

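The 9 DAP-seq samples comprised 3 of HALO-AmMIXTA, 3 of HALO-NtZFP8 and 3 of HALO-nlsGFP, each with 1000 ng of DNA for 1 h per the labels' protocols. Per the series' design text, the authors mapped reads to the tobacco genome of Sierro and colleagues and called hits against GFP, with 2 as the lower limit of the peak shape score and 0.05 as the upper limit of p. For the aligner, the peak caller and the treatment of replicates, names and versions were not given in the sources used here. The deposited peak lists (29197 AmMIXTA and 20957 NtZFP8 peaks) and gene tables (1874 and 1235 lines) hold the score and the p-value of each peak, without a value per replicate and without depth, so no interval or test over replicates can be given.

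Table lines were joined to peaks by sequence and centre, and every line found its peak. Of the 160 blank NtZFP8 descriptions, 4 were lines of members known from another line of the gene, and 19 genes have no description in either table and could not be matched. A peak was counted as overlapping from 1 bp. Members and role groups were chosen with earlier results of these data known. The rule for naming took every member, with the strongest and the shared ones in detail. Python 3.11.15 and pandas 2.3.3 were used, and the overlap calculation was tested on simulated data. Alternatives were other score thresholds, overlap rules, peak sources and member sets. The place of peaks relative to exons and promoters, motifs and sequences were not analysed here, as no genome of the build was used. Another assembly, ASM71507v2, lists 28 of the 35 members.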

Additional observations from a re-analysis of the deposited data

Results flagged for a closer look

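A further list deposited with the data names no protein and was used in no comparison above. Of its 178 genes, 1 was a member, the replication protein A 70 kDa subunit gene LOC107807453. It was picked out because a peak stands there in data outside the main lists. The peak spanned 1158 to 1348 of NW_015944541.1 with a score of 4.35 and a p-value of 6.84e-06, and the list places it within the gene. Its centre is in neither protein's full list, but it lies inside the AmMIXTA peak (17.61) and inside the NtZFP8 peak (13.51). No value of the GFP control is given for it.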

How the results depend on the processing

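Main counts were 26 members for AmMIXTA, 15 for NtZFP8, 13 for both and 13 with overlapping peaks. With a score above 5 these became 7, 4, 4 and 4, as fewer peaks qualify by construction. With a score above 3 they were 18, 11, 10 and 10, and at any listed score 33, 18, 16 and 16. The other alternatives kept each count within 1.5 times its main value. Counting genes of 1 description once, chosen after seeing the data, gave 21, 13, 12 and 12. The full list of the other protein raised NtZFP8 to 16 and both to 14. Centres within 50 bp for any pair of peaks left 10 of the 13. For the highest peaks alone the count was 9, as SYD-like has a pair 41 bp apart but its highest peaks lie 758 bp apart. The median highest score of members was 3.04 at any listed score and 4.68 above 3 for AmMIXTA, and 3.33 and 3.99 for NtZFP8. No paired analysis was possible because the lists hold no value per replicate, and leaving out replicates could not be done for the same reason. Depth is unknown, so a gene not listed cannot be called unbound.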

Other observations

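Genes of the same biology described in other words were looked for after the values were seen, so their counts support nothing. Of 21 such genes, 7 were past the criteria for both proteins, 5 for AmMIXTA alone, 1 for NtZFP8 alone and 8 for neither. The highest was a Werner Syndrome-like exonuclease (LOC107784650), related to an exonuclease of DNA repair, with 10.64 for AmMIXTA and 9.78 for NtZFP8, while a second gene of that name (LOC107797463) had 2.49 for AmMIXTA. The histone demethylase JMJ25-like LOC107763131 had 4.65 and 3.78, and its namesakes LOC107807497 and LOC107820201 had 3.59 and 1.79 for AmMIXTA. The largest subunit of RNA polymerase IV (LOC107766126), which starts RNA-directed DNA methylation in plants, had 3.48 and 5.18. Bromodomain-containing protein 9-like (LOC107830856), of a family that reads acetylated histones, had 4 and 5.04. Another gene, LOC107830857, had the same scores for both proteins, and whether they come from the same peaks was not analysed here. Enhancer of polycomb-like protein 1 (LOC107801921) had 3.85 and 2.29, and the Polycomb gene EMBRYONIC FLOWER 2-like (LOC107829159) had 2.54 for AmMIXTA. Both DNA ligase 4-like genes, partners of XRCC4 in end joining, were under the criterion for AmMIXTA at 1.94 (LOC107760230) and 1.93 (LOC107827172).

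AmMIXTA peaks were not centred. At 34 of the 35 AmMIXTA peak lines of members the centre lay nearer to the end of the region than to its start, against 5 of 23 NtZFP8 lines. The peak shared by the ATX4-like genes LOC107814845 and LOC107814847 is counted for each of them. This count was not made over all genes, so it is not read as a trait of the members, and the medians of all genes were off centre too. The highest AmMIXTA peaks of the 26 members reached a median of 272.5 bp before the centre and 159 bp after it, beside 251 and 160 bp at all genes. The NtZFP8 values at the 15 members were 139 and 140 bp, beside 139 and 151 bp. By these medians, AmMIXTA regions reached further from the centre to lower coordinates than to higher ones.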
